A study of Homo sapiens with 30 samples.

Results

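MHC class I molecules carry peptides from inside the cell to its surface. The account below follows 9 genes of this route, HLA-B, HLA-C, HLA-E, HLA-F, B2M, TAP1, TAP2, PSMB8 and PSMB9, in LNCaP, a human prostate cancer cell line that responds to androgen. They were taken by gene symbol from 2 deposited tables, and 9 of 9 were found among the 26443 genes with values. RNA had been sequenced in 30 libraries, 3 for each of 10 groups. In the pLKO experiment, cells kept in RPMI medium with serum were infected for 5 days with the control vector (pLKO) or with an shRNA against the deubiquitinase USP7 (shUSP7, 1 shRNA), the spindle checkpoint protein BUB3 (shBUB3) or the pioneer transcription factor FOXA1 (shFOXA1 in pLKO). In the siRNA experiment, cells were transfected for 4 days with control siRNA (siCtrl) or siRNA against EZH2, the methyltransferase of polycomb complex PRC2 (siEZH2). In the pGIPZ experiment, cells carried the control vector (pGIPZ), an shRNA against FOXA1 (shFoxA1 in pGIPZ), or that shRNA together with HA-tagged FOXA1, either wild type (shFoxA1 WT) or K295A, by its name a lysine-to-alanine version (shFoxA1 K295A). The shRNA cells of this experiment were also taken at 5 days, except that the time given in the labels does not extend to K295A library 3. All groups are the same line. Nothing in the labels ties the 3 libraries of a group to different cultures. The p-values below therefore judge differences only against the spread between these libraries, which may be technical. The series' title asks about the stability of FOXA1 protein, and only RNA was measured here.

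A class I molecule is a polymorphic heavy chain (HLA-B and HLA-C here) held by the invariant light chain beta-2-microglobulin, the product of B2M. HLA-E and HLA-F are non-classical heavy chains, of which HLA-E is best known as the ligand of NKG2A receptors on natural killer cells. Peptides are cut by the proteasome, whose catalytic subunits can be replaced by the interferon-induced PSMB8 and PSMB9, and are pumped into the endoplasmic reticulum by the transporter that TAP1 and TAP2 form together. The promoters of these genes are known to respond to interferon, to NF-kB, and to the SXY module that NLRC5 works through. FOXA1 and EZH2 have each been reported in the literature to restrain interferon or antigen presentation genes, and LNCaP has long been described as a line with little class I at its surface.

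Of the 9 genes, 8 lie in the MHC on chromosome 6 and B2M lies on chromosome 15. In RefSeq coordinates on GRCh38.p14, the heavy chain genes are HLA-F at chr6:29723434-29738532, HLA-E at chr6:30489509-30494194, HLA-C at chr6:31268749-31272092 and HLA-B at chr6:31353875-31357179. The peptide supply genes stand together, with TAP2 at chr6:32821831-32838739, PSMB8 at chr6:32840717-32844679, TAP1 at chr6:32845209-32853704 and PSMB9 at chr6:32854192-32859851. B2M is at chr15:44711517-44718145. The starts of TAP1 and PSMB9 are 488 bases apart on opposite strands, and their promoter windows share 13 bases. Promoters were at hand from RefSeq for 8 of the 9 genes, in 10 entries, and HLA-E had none. The 150 bases from 190 to 41 bases before the start are shown for 6 of these 8 genes, on the gene's own strand. That stretch was chosen because it holds the known control elements. Capitals mark letters searched for on both strands: GAAA, any 2 bases, GAAA, called the double GAAA word below, and GTTTCNCTT (interferon-type elements, overlapping in HLA-F). They also mark GGGGATTC, any base, CC, called the long NF-kB word, and GGG, any 2 bases, TT, any base, CC, called the short NF-kB word (overlapping in HLA-B). The last words are TGACG (the core of CREB-type sites) and CCAAT (the NF-Y box, ATTGG on the other strand).
HLA-B, chr6:31357220-31357369, minus strand: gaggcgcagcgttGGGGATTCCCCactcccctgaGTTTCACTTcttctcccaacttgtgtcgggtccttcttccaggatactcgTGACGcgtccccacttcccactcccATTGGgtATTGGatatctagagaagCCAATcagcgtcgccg
HLA-C, chr6:31272133-31272282, minus strand: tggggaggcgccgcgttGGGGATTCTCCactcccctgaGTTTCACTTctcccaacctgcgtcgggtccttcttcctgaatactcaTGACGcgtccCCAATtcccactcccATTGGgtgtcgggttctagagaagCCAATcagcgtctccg
HLA-F, chr6:29723244-29723393, plus strand: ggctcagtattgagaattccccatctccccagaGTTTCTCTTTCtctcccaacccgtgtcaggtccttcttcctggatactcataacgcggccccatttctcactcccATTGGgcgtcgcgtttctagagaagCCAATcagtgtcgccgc
B2M, chr15:44711327-44711476, plus strand: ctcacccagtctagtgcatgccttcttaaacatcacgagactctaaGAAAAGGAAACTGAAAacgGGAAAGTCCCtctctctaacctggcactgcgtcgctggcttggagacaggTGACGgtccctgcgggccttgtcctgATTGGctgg
TAP1, chr6:32853745-32853894, minus strand: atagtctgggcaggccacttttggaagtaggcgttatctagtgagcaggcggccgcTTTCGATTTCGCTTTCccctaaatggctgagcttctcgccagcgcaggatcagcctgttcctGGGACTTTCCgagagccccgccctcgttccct
TAP2, chr6:32838780-32838929, minus strand: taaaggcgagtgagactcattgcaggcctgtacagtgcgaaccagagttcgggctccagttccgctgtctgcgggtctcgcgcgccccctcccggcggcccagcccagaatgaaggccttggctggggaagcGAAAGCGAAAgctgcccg

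Over whole promoters (250 bases before to 50 after the start), the double GAAA word stood in B2M, HLA-F, PSMB8, TAP1 and TAP2 and in 3.57% of 35116 promoters. GTTTCNCTT stood in HLA-B, HLA-C and HLA-F and in 1.53% of all promoters. The long NF-kB word stood in HLA-B and HLA-C and in 0.0769% of all promoters, and the short one in B2M, HLA-B and TAP1 and in 5.68%. The short words are common: CCAAT stood in 34.6% of promoters and TGACG in 24.6%. HLA-B and HLA-C were 88.5% identical over the promoter, and HLA-F was 79.7% identical to HLA-B, against 48.2% to 52.3% for pairs that include B2M, TAP1 or TAP2. The words were chosen with these sequences in view, and a match describes letters, not binding.

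Values are FPKM in the pLKO and siRNA experiments and RPKM in the pGIPZ experiment, both of which divide reads by gene length and library total, and differences are given as log2(value + 1). Relative depth spanned 0.602 to 1.30 in the 18 FPKM libraries and 0.847 to 1.30 in the 12 RPKM libraries. Value sums ran from 235344 to 367614 FPKM, highest in the third shBUB3 library, and from 273703 to 297802 RPKM. The targeted RNA was at 22.1% of control in shUSP7, 11.0% in shBUB3, 50.9% in shFOXA1 (pLKO), 39.6% in siEZH2 and 62.7% in shFoxA1 (pGIPZ). All 8 luminal prostate markers reached a value of 1 in every group. The 12 leukocyte markers summed to 0.362 to 2.20 per library, with CD3D or CD3E at 0 in every group, PTPRC (CD45) at 0 in pLKO and in all 4 groups of the pGIPZ experiment, and 1 marker reaching 1 in 1 group, shFoxA1 WT. The luminal markers summed to 1958 to 2007 FPKM in pLKO, 1053 to 1102 in shUSP7, 1353 to 1636 in shBUB3 and 1506 to 1588 in shFOXA1. They summed to 2131 to 2248 FPKM in siCtrl and 525.6 to 620.7 in siEZH2, and to 2320 to 2359 RPKM in pGIPZ, 2078 to 2127 in shFoxA1 and 1552 to 1655 in the re-expression groups. The 6 stromal markers summed to 3.305 to 4.075 FPKM in siCtrl and 11.39 to 14.79 in siEZH2, and to 2.832 to 6.518 FPKM or RPKM elsewhere. The 4 endothelial markers summed to 1.703 to 1.779 FPKM in pLKO, 4.323 to 4.636 in shUSP7, 2.908 to 3.461 in shBUB3 and 0.1103 to 0.2565 in shFOXA1, and to 0.6395 to 1.40 FPKM or RPKM in the other experiments. The 3 basal markers summed to 0.9019 to 1.065 FPKM in pLKO, 0.1199 to 0.4217 in shUSP7 and shBUB3 and 2.387 to 3.158 in shFOXA1. They summed to 0.1931 to 0.401 FPKM in siCtrl and 0.04425 to 0.168 in siEZH2. In the pGIPZ experiment they summed to 2.608 to 2.691 RPKM in pGIPZ, 5.415 to 7.496 in shFoxA1 and 1.409 to 2.661 in the re-expression groups. The part of these shifts in the results below was not tested. The preparation kit does not mark strand, and the heavy chain genes are near-identical and polymorphic. How the authors' counting split reads among them, or between PSMB9 and the overlapping TAP1 and PSMB8 models of GENCODE 29, is unknown here. In bulk RNA, fewer expressing cells and less RNA per cell cannot be told apart.

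In the unperturbed controls, B2M was the most abundant of the 9 per length, followed by HLA-C and HLA-B. B2M averaged 64.0 ± 1.81 FPKM (SD, n = 3) in pLKO and 80.7 ± 8.99 FPKM in siCtrl, where it ranked 752 and 624 among 19588 and 19117 genes above 0. HLA-C averaged 15.0 ± 0.474 and 16.0 ± 0.395 FPKM, and HLA-B 5.48 ± 0.388 and 7.21 ± 0.491 FPKM. HLA-E, TAP1 and TAP2 all lay between 1.07 and 1.65 FPKM in these controls, and HLA-F at 0.438 and 0.505 FPKM. The immunoproteasome subunits were near the floor. PSMB8 averaged 0.0330 FPKM and PSMB9 0.0439 FPKM in pLKO, 0.0473% of PSMB5 and 0.0618% of PSMB6, the constitutive subunits they replace, while PSMB10, the induced partner of PSMB7, stood at 34.4% of it. In the pGIPZ control the same genes were listed higher: B2M at 249 ± 15.2 RPKM (rank 116 of 19500), HLA-C at 46.7 ± 0.759, HLA-B at 28.0 ± 0.588, TAP1 at 3.47 ± 0.103 and PSMB9 at 0.614 ± 0.108 RPKM. The tables were normalized separately, so that gap was not tested. As a measured fact beside it, RNA of ISG15, an interferon-induced ubiquitin-like protein, was at 618.5 ± 34.5 RPKM in the pGIPZ control against 38.2 ± 2.34 FPKM in pLKO and 46.7 ± 1.38 FPKM in siCtrl.

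**Figure D1:**
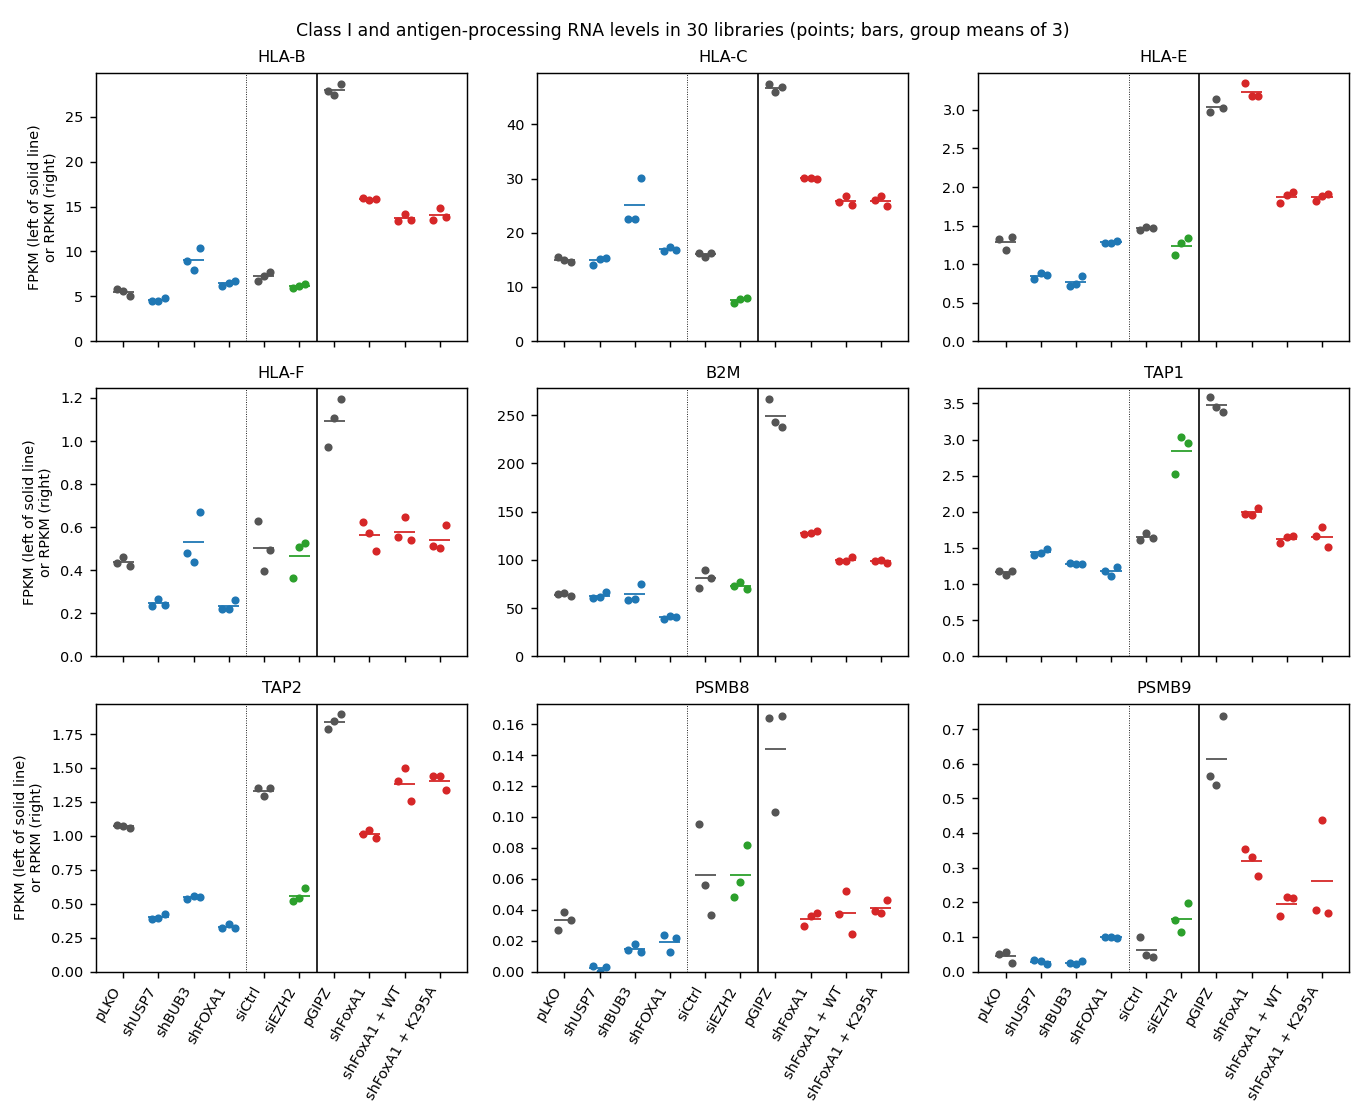
Levels of the 9 genes in 30 libraries, 1 panel per gene, with a point per library and a bar at each group's mean of 3; values left of the solid line are FPKM and right of it RPKM, which were normalized separately. B2M, HLA-B, HLA-C and TAP1 are highest in the pGIPZ control and lower in the 3 FOXA1 groups beside it, HLA-C is lowest after siEZH2, and PSMB8 and PSMB9 lie under 1 throughout.

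In the pGIPZ experiment, B2M, HLA-B, HLA-C, TAP1 and TAP2 were all lower in the FOXA1 knockdown than in the control. Re-expression of FOXA1, wild type or K295A, did not bring them back to the control level. With it B2M, HLA-B, HLA-C and TAP1 were lower still and HLA-E was lower too, while TAP2 rose part of the way. Whether loss of FOXA1 itself accounts for the lower values was not tested. No group is labelled as carrying this shRNA with an empty expression vector. FOXA1 and the added construct therefore cannot be told apart in the re-expression groups. After shFoxA1 0 of the 6 tested genes were higher and 5 were lower, where 25.0% of all genes tested were called higher and 24.2% lower at an adjusted p under 0.05. With shFoxA1 WT 6 of 6 were lower against pGIPZ, beside 33.7% of genes higher and 11.8% lower, and with shFoxA1 K295A again 6 of 6, beside 37.8% higher and 12.8% lower. HLA-F, PSMB8 and PSMB9 fell under the minimum level for testing, 1 in 3 or more libraries, and were not tested. The median difference of the tested genes was -0.60, -0.80 and -0.79 against pGIPZ, where the median over all genes was 0.00, 0.10 and 0.11. The 3 comparisons share the pGIPZ libraries, so a high value in that control enters each of them.

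B2M stood at 238, 243 and 266 RPKM in pGIPZ and at 127, 127 and 130 RPKM in shFoxA1. It was at 99.1, 99.2 and 102 RPKM in shFoxA1 WT and at 96.8, 99.0 and 99.95 RPKM in shFoxA1 K295A. Every library of the 3 FOXA1 groups was below every control library, and both re-expression groups lay below the knockdown without overlap. The difference from pGIPZ was -0.95 ± 0.036 (SE, adjusted p = 1.30e-09) after shFoxA1, -1.30 ± 0.036 (adjusted p = 2.38e-10) with WT and -1.33 ± 0.036 (adjusted p = 2.35e-10) with K295A, which left 51.4%, 40.3% and 39.6% of the control level.

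HLA-B, a classical heavy chain, was at 27.5, 27.9 and 28.7 RPKM in pGIPZ and at 15.7, 15.8 and 15.9 RPKM in shFoxA1. Its re-expression libraries were at 13.4, 13.5 and 14.2 RPKM for WT and 13.5, 13.9 and 14.9 RPKM for K295A. No library of a FOXA1 group was above 15.9 RPKM and no control was below 27.5 RPKM. HLA-B differed from pGIPZ by -0.79 (SE 0.039, adjusted p = 1.42e-08) after shFoxA1, by -0.98 with WT (adjusted p = 6.13e-09) and by -0.95 with K295A (adjusted p = 7.78e-09). HLA-C, also a classical chain, was at 45.9, 46.8 and 47.4 RPKM in pGIPZ and at 29.9, 30.1 and 30.2 RPKM in shFoxA1. It was at 25.1, 25.7 and 26.7 RPKM with WT and 24.9, 26.0 and 26.7 RPKM with K295A, below both other groups without overlap. HLA-C differed from pGIPZ by -0.62 (SE 0.033, adjusted p = 2.67e-08), -0.83 and -0.83 on the log2 scale.

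HLA-E was at 2.97, 3.02 and 3.14 RPKM in pGIPZ and at 3.18, 3.18 and 3.34 RPKM in shFoxA1, a difference of 0.07 (95% interval -0.05 to 0.19, adjusted p = 0.341). Its level was 1.79, 1.89 and 1.93 RPKM with WT and 1.82, 1.89 and 1.91 RPKM with K295A. In both re-expression groups HLA-E differed from pGIPZ by -0.49 (adjusted p = 2.61e-05 and 2.18e-05) and from shFoxA1 by -0.56 (adjusted p = 4.17e-06 and 4.11e-06). HLA-F was at 0.973, 1.11 and 1.20 RPKM in pGIPZ and between 0.491 and 0.649 RPKM in the 9 other libraries, with no overlap between control and each group.

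TAP1, the first subunit of the peptide transporter, was at 3.38, 3.45 and 3.58 RPKM in pGIPZ and at 1.96, 1.97 and 2.06 RPKM in shFoxA1. It was at 1.56, 1.65 and 1.67 RPKM with WT and 1.51, 1.67 and 1.79 RPKM with K295A. All 9 libraries of the FOXA1 groups lay below the controls, with log2 differences of -0.58 (SE 0.062, adjusted p = 1.05e-05), -0.77 and -0.75. TAP2, the other subunit, was at 1.79, 1.84 and 1.90 RPKM in pGIPZ and at 0.981, 1.01 and 1.04 RPKM in shFoxA1. With FOXA1 back it was at 1.25, 1.40 and 1.50 RPKM for WT and 1.34, 1.44 and 1.44 RPKM for K295A, between the control and the knockdown without overlapping either. TAP2 differed from pGIPZ by -0.50 after shFoxA1 (SE 0.070, adjusted p = 9.43e-05) and by -0.25 and -0.24 with WT and K295A (adjusted p = 0.0111 and 0.0131).

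PSMB8 was at 0.103, 0.164 and 0.165 RPKM in pGIPZ and at 0.0292 to 0.0376 RPKM in shFoxA1. It was at 0.0243 to 0.0521 RPKM with WT and 0.0376 to 0.0464 RPKM with K295A. PSMB9 was at 0.539, 0.566 and 0.738 RPKM in pGIPZ, at 0.275, 0.330 and 0.355 RPKM in shFoxA1 and at 0.161, 0.214 and 0.214 RPKM with WT. In K295A it was at 0.168, 0.178 and 0.437 RPKM, where library 2 stands above the others. Both genes were lower without overlap in each of the 3 groups. The values are whole multiples of a common step (within 0.1 of a step), and how many reads make a step is unknown here. PSMB8 had 20 to 28 steps in the pGIPZ control libraries and 5 to 7 in each other library, and PSMB9 had 53 to 74 in the control and 15 to 48 in the others. Of the 6 tested genes, 6 did not overlap the control in shFoxA1 (HLA-E higher, the other 5 lower), in WT and in K295A (6 lower), where 56.4%, 53.6% and 57.7% of all genes tested did not overlap. HLA-F, PSMB8 and PSMB9 did not overlap either, and those shares do not cover genes under the filter.

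Re-expression was also compared with the knockdown itself. FOXA1 RNA was 82.5 ± 1.87 RPKM (SD, n = 3) in shFoxA1, 151.8 ± 0.899 with WT and 151.4 ± 2.90 with K295A, against 131.5 ± 2.38 RPKM in pGIPZ. While FOXA1 RNA rose to 184% of the knockdown level in either group, HLA-E, B2M, HLA-C, HLA-B and TAP1 fell and TAP2 rose. In WT against shFoxA1, 1 of 6 tested genes was higher and 5 were lower, beside 36.6% of all genes higher and 18.9% lower. In K295A against shFoxA1 it was again 1 higher and 5 lower, beside 38.7% and 18.3%. With WT and then K295A, B2M differed from shFoxA1 by -0.35 and -0.37 (adjusted p = 7.54e-06 and 4.16e-06), HLA-C by -0.21 in both (adjusted p = 0.000205 and 0.000203) and HLA-B by -0.19 and -0.16 (adjusted p = 0.00142 and 0.00456). TAP1 differed by -0.19 and -0.17 (adjusted p = 0.0214 and 0.0303), and TAP2 rose by 0.24 and 0.26 (adjusted p = 0.0108 and 0.00777). The TAP1 calls were lost in some fits. With only the 2 groups compared in the fit, adjusted p was 0.0530 for WT and 0.0846 for K295A. For WT it was 0.0654 without WT library 1 and 0.0674 without shFoxA1 library 3, and for K295A it was 0.0580 to 0.111 without K295A library 1 or 3 or any 1 of the shFoxA1 libraries.

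**Figure D2:**
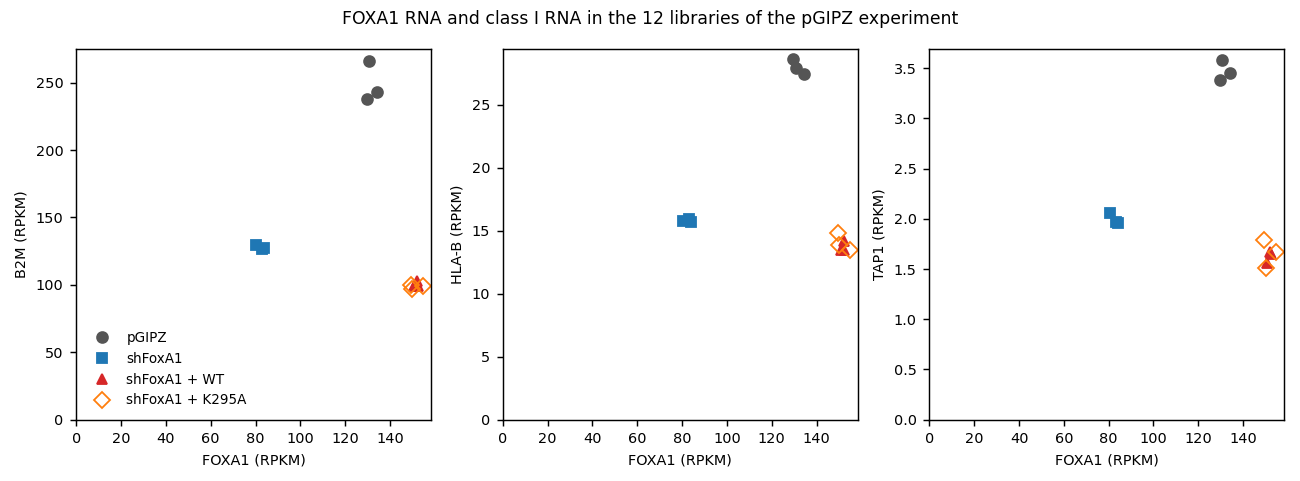
FOXA1 RNA (RPKM, horizontal) against B2M, HLA-B and TAP1 RNA (RPKM, vertical) in the 12 libraries of the pGIPZ experiment, 1 symbol per library, all axes from 0. The 6 re-expression libraries lie to the right of the control for FOXA1 and lowest for B2M, at 96.8 to 102 RPKM, and the knockdown lies between them and the control for B2M.

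Between the K295A and wild-type versions, 0 of the 6 tested genes were called higher or lower and 0 had an unadjusted p under 0.05. Over all genes, limma called 11 higher and 12 lower (0.0876% and 0.0955%). The 95% interval of the K295A minus WT difference was -0.10 to 0.06 for B2M, -0.05 to 0.12 for HLA-B, -0.07 to 0.07 for HLA-C and -0.12 to 0.12 for HLA-E. For the transporter it was -0.12 to 0.15 for TAP1 and -0.14 to 0.17 for TAP2. Differences as large as the one between WT and shFoxA1 in B2M or HLA-E lie outside these intervals.

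When each library was scaled by its median ratio to the others, the median of all genes moved by -0.110 in K295A against pGIPZ, 0.145 in shFOXA1 against pLKO and 0.134 in siEZH2, and by under 0.1 elsewhere. Higher genes went as a share of those called from 74.0% to 48.5% in WT against pGIPZ, from 74.7% to 49.4% in K295A against pGIPZ, from 65.9% to 49.8% in WT against shFoxA1, from 67.9% to 49.3% in K295A against shFoxA1 and from 47.8% to 34.5% in K295A against WT. Under that scaling B2M differed from pGIPZ by -1.41 in WT and -1.45 in K295A, and HLA-B by -1.08 and -1.06.

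**Figure D3:**
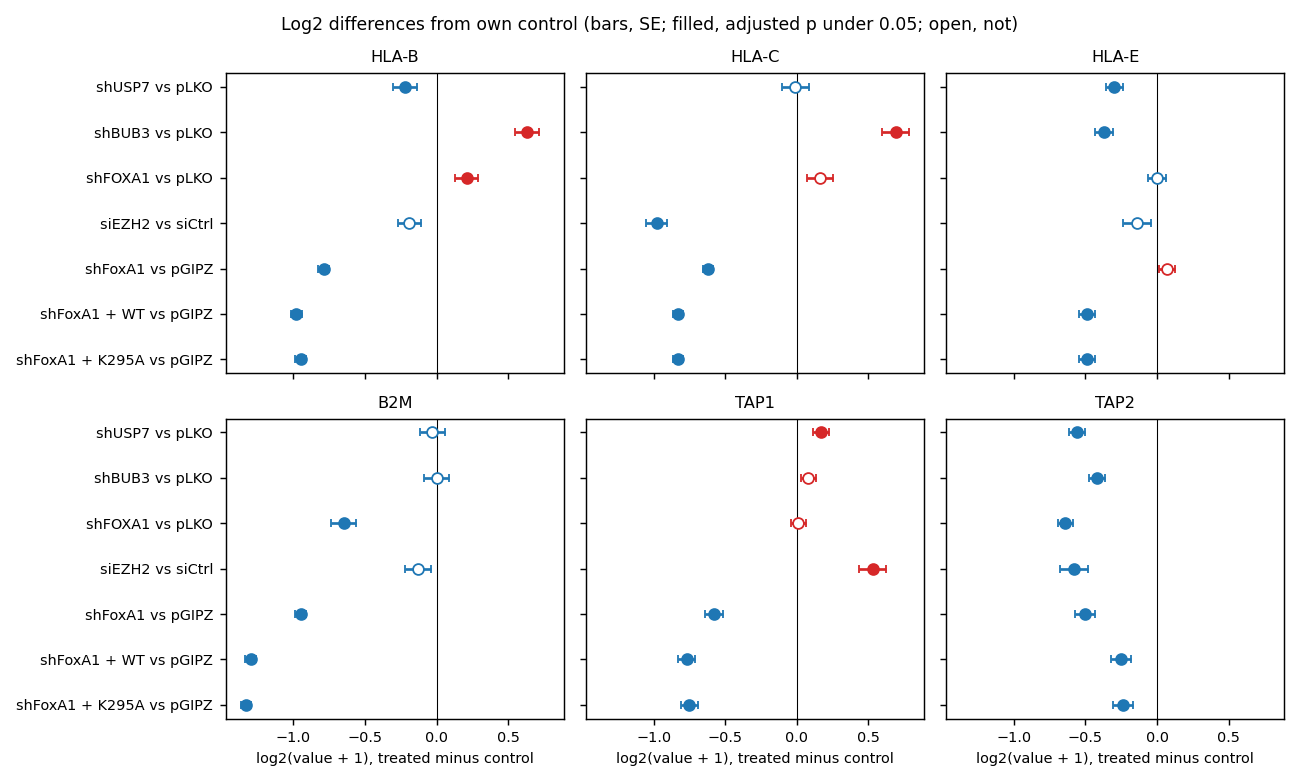
Difference from the own control, log2(value + 1), of the 6 tested genes in 7 comparisons, with bars of 1 SE and points filled where adjusted p is under 0.05. HLA-B and HLA-C lie right of 0 after shBUB3 and left of it in the 3 pGIPZ groups, HLA-C lies furthest left after siEZH2 at -0.98, and TAP2 lies left of 0 in all 7.

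In the pLKO experiment, B2M was lower after FOXA1 knockdown, while HLA-B was higher by a narrow margin and HLA-C was not called. B2M was at 62.1, 64.1 and 65.7 FPKM in pLKO and at 38.7, 40.7 and 41.8 FPKM in shFOXA1, a fall of 0.65 (SE 0.085, adjusted p = 3.00e-05). HLA-B was at 5.04, 5.59 and 5.80 FPKM in pLKO and at 6.18, 6.52 and 6.70 FPKM in shFOXA1, higher without overlap. The HLA-B difference of 0.21 (adjusted p = 0.0422) was lost in several fits: adjusted p was 0.0506 to 0.152 without any 1 of the 3 shFOXA1 libraries or without pLKO library 2 or 3, 0.0630 with no filter and 0.0534 with the replicate number as a block. HLA-C was at 14.6, 14.9 and 15.6 FPKM in pLKO and at 16.6, 16.8 and 17.4 FPKM in shFOXA1, a difference of 0.16 (adjusted p = 0.137). Scaled by the median ratio, HLA-B differed by 0.35 (adjusted p = 0.00378) and HLA-C by 0.32 (adjusted p = 0.0145). HLA-E (0.00) and TAP1 (0.01) were not called. PSMB9 was listed at 0.0967, 0.0989 and 0.0992 FPKM against 0.0252, 0.0511 and 0.0554 FPKM in control, 16 to 20 steps against 4 to 11. In all, 1 of 6 tested genes was higher and 2 lower (B2M, and TAP2, which passed the filter through its control group alone), or 1 called in all without pLKO library 2 or 3, beside 25.2% of all genes higher and 45.1% lower. Nothing is read from that count about the 6 genes. Over all genes, higher ones were 35.9% of those called, or 48.4% after median-ratio scaling.

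BUB3 knockdown raised the classical heavy chains HLA-B and HLA-C, lowered HLA-E and gave no called difference in B2M. HLA-B was at 7.94, 8.93 and 10.4 FPKM in shBUB3, 166% of the pLKO mean, and HLA-C at 22.5, 22.6 and 30.1 FPKM, 167% of it. HLA-B rose by 0.63 (SE 0.082, adjusted p = 3.64e-05) and HLA-C by 0.69 (SE 0.092, adjusted p = 4.64e-05), with every shBUB3 library above every control. Their highest values come from shBUB3 library 3, which also has the highest value sum, and without it the differences were 0.54 and 0.55. B2M was at 58.7, 59.6 and 75.5 FPKM, a difference of 0.00 (95% interval -0.18 to 0.19, adjusted p = 0.966), or -0.11 (adjusted p = 0.0523) without that library. HLA-E was at 0.713, 0.736 and 0.852 FPKM against 1.18, 1.32 and 1.35 FPKM in pLKO and fell by 0.37 (adjusted p = 0.000204), against the direction of HLA-B and HLA-C. TAP1 was at 1.27, 1.28 and 1.29 FPKM against 1.13, 1.18 and 1.19 FPKM and was not called (0.08, adjusted p = 0.235). The count was 2 higher and 2 lower (TAP2 among them) of 6, beside 33.3% and 32.0% of all genes. It is near those shares and is no result about the 6 genes.

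After USP7 knockdown B2M and HLA-C were not called, HLA-E was lower and TAP1 was higher, a call lost without either of 2 libraries. B2M was at 60.4, 61.4 and 66.4 FPKM (difference -0.03, 95% interval -0.22 to 0.16) and HLA-C at 14.1, 15.2 and 15.4 FPKM (difference -0.01, interval -0.22 to 0.19), both overlapping the control. HLA-E was at 0.806, 0.863 and 0.881 FPKM and fell by 0.30 (SE 0.060, adjusted p = 0.000928). TAP1 was at 1.40, 1.43 and 1.49 FPKM and rose by 0.17 (adjusted p = 0.0155), a call lost without pLKO library 2 (adjusted p = 0.0574) or shUSP7 library 3 (adjusted p = 0.0568). HLA-B was at 4.43, 4.47 and 4.79 FPKM and was called lower by a small margin (-0.22, adjusted p = 0.0365); adjusted p was 0.112 after median-ratio scaling, 0.0571 with no filter and 0.0927 to 0.122 without pLKO library 1 or 2 or shUSP7 library 1 or 2. PSMB8 was listed at 0, 0.00304 and 0.00332 FPKM, 0 or 1 step, against 0.0268 to 0.0387 FPKM, 8 to 13 steps, in pLKO. In all 1 gene was higher and 3 were lower (TAP2 among them) of 6, beside 29.1% and 33.0% of all genes, and nothing is read from that count. Of these 4, 1 was called without pLKO library 2 and 2 without pLKO library 1.

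HLA-F and TAP2 were low in all of these libraries. HLA-F was at 0.417, 0.434 and 0.463 FPKM in pLKO, at 0.232 to 0.267 FPKM in shUSP7 and at 0.218 to 0.262 FPKM in shFOXA1, both below the control without overlap. In shBUB3 it was at 0.440, 0.482 and 0.672 FPKM and overlapped the control. TAP2 was at 1.05, 1.07 and 1.08 FPKM in pLKO, at 0.389, 0.398 and 0.421 FPKM in shUSP7, at 0.535, 0.552 and 0.554 FPKM in shBUB3 and at 0.322, 0.324 and 0.347 FPKM in shFOXA1. TAP2 passed the filter through its control group alone here and in the siRNA experiment, so its lower values there (differences of -0.56, -0.42, -0.64 and, in siEZH2, -0.58) are a description although they count among the calls. It was lower in all 3 knockdowns, which share that control.

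EZH2 siRNA lowered HLA-C and raised TAP1. HLA-C was at 15.6, 16.3 and 16.3 FPKM in siCtrl and at 7.11, 7.75 and 8.05 FPKM in siEZH2, 47.6% of control. On the log2(value + 1) scale its fall of 0.98 (SE 0.075, adjusted p = 2.43e-06) was the largest of any of the 6 genes outside the pGIPZ experiment. As a share of control TAP2 was left lower, at 42.0% in siEZH2, 37.7% in shUSP7 and 31.0% in shFOXA1 (pLKO). The whole promoter of HLA-B (250 bases before to 50 after the start) is 88.5% identical to that of HLA-C. HLA-B was at 6.71, 7.24 and 7.69 FPKM in siCtrl and at 5.92, 6.21 and 6.38 FPKM in siEZH2. Its difference was -0.19 (95% interval -0.38 to -0.01, adjusted p = 0.0591). The 2 genes' intervals do not meet, and the difference between genes was not itself tested. B2M was at 71.3, 81.5 and 89.2 FPKM in siCtrl and at 69.3, 73.0 and 77.4 FPKM in siEZH2, overlapping. Its difference was -0.13 (adjusted p = 0.208), and -0.22 (adjusted p = 0.0450) without siCtrl library 1. TAP1 was at 1.60, 1.64 and 1.71 FPKM in siCtrl and at 2.52, 2.95 and 3.04 FPKM in siEZH2, a rise of 0.53 (SE 0.095, adjusted p = 0.000699). PSMB9, its neighbour with an overlapping model, was listed at 0.0410, 0.0471 and 0.0989 FPKM in siCtrl. In siEZH2 PSMB9 was higher without overlap, at 0.113, 0.148 and 0.199 FPKM, which was 15 to 23 steps against 5 to 11. It was under the filter, and limma with no filter did not call it (adjusted p = 0.0529). PSMB8 averaged 0.0626 FPKM in siCtrl and 0.0627 FPKM in siEZH2. TAP2 was at 1.30, 1.35 and 1.35 FPKM in siCtrl and lower in siEZH2, at 0.521, 0.541 and 0.618 FPKM. HLA-E, at 1.45, 1.47 and 1.48 FPKM in siCtrl and 1.11, 1.27 and 1.34 FPKM in siEZH2, was not called (adjusted p = 0.217). The count was 1 higher and 2 lower (TAP2 among them) of 6, beside 20.3% and 43.0% of all genes, and is no result about the 6 genes. Over all genes, higher ones were 32.1% of those called or 45.8% after median-ratio scaling. Under that scaling HLA-B differed by -0.06, B2M by 0.02, HLA-C by -0.84 and TAP1 by 0.63, and the sign of B2M here rests on the scale. FOXA1 RNA was at 68.6% of control in the same libraries. EZH2 RNA was at 39.6% of control here and at 36.2% in shBUB3, where HLA-C was at 167%. The part of EZH2 or FOXA1 RNA in the HLA-C levels was not tested.

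The 2 knockdowns of FOXA1 can be set side by side for each gene, since their libraries and controls are separate. B2M was lower in both (-0.65 in pLKO, -0.95 in pGIPZ). TAP2 was listed lower in both too (-0.64 and -0.50), but in pLKO it passed the filter through its control group alone, so that value is a description. HLA-B was 0.21 in pLKO and -0.79 in pGIPZ, HLA-C 0.16 and -0.62, TAP1 0.01 and -0.58, and HLA-E 0.00 and 0.07. The difference between the experiments was not tested, because the tables were normalized separately, and FOXA1 RNA stood at 50.9% of control in the first and 62.7% in the second. ISG15 was at 618.5 RPKM in the pGIPZ control and 38.2 FPKM in pLKO (above), and its part in these differences was not tested.

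The loading complex and peptide supply genes (21, of which 20 were tested) were mostly lower in the pGIPZ experiment. After shFoxA1 2 were higher and 15 lower (median -0.25), beside 25.0% of all genes higher and 24.2% lower. With WT 3 were higher and 12 lower (-0.17), beside 33.7% and 11.8%, and with K295A 4 and 12 (-0.21), beside 37.8% and 12.8%. TAPBP, the tapasin that bridges TAP and the heavy chain, fell from 8.90 RPKM in the control, with differences of -0.42, -0.55 and -0.49. Its relative TAPBPL, a peptide editor, differed by -0.27, -0.83 and -0.81. The proteasome activator subunits PSME1 (-0.46, -0.44 and -0.34) and PSME2 (-0.56, -0.50 and -0.46) fell too, as did the induced proteasome subunit PSMB10 (-0.25, -0.28 and -0.33). ERAP1, which trims peptides in the endoplasmic reticulum, was at -0.12 (adjusted p = 0.112) after shFoxA1 and fell with re-expression (-0.44 and -0.42). The constitutive subunits PSMB5 and PSMB6 were at -0.08 (adjusted p = 0.128) and -0.13 after shFoxA1 and at 0.17 and 0.15 with WT.

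Of the same 20 genes, 2 were higher and 6 lower after shUSP7 (29.1% and 33.0% of all genes), 7 and 5 after shBUB3 (33.3% and 32.0%) and 6 and 10 after shFOXA1 in pLKO (25.2% and 45.1%). After siEZH2 4 were higher and 12 lower, beside 20.3% and 43.0% of all genes (2416 higher and 5122 lower). After median-ratio scaling the list gave 4 and 8, where 3421 of all genes were higher and 4046 lower. The scaled count has no unscaled share as its background, and nothing is read from it. The counts after shBUB3 and shFOXA1 (pLKO) are near the shares over all genes and are no result about the list, and the same holds for the 6 lower after shUSP7 and the 4 higher after siEZH2. In shBUB3 the chaperone calreticulin, CALR, which holds newly made heavy chains, rose by 0.96 to 1114 FPKM and TAPBP by 0.38, beside HLA-B and HLA-C. The constitutive proteasome subunit PSMB6 fell by 2.28 in the same group, from 70.3 to 13.8 FPKM. In siEZH2 ERAP1 rose by 1.21, from 2.44 to 6.95 FPKM, beside TAP1, PSME1 (0.27) and PSME2 (0.23), whereas PSMB10 fell by 0.40 and PSMB5 by 1.75. In shFOXA1 (pLKO), ERAP1 (0.50), PSME1 (0.40) and TAPBP (0.36) rose while B2M fell.

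Among 14 known regulators of class I promoters, 5 were higher and 4 lower after shFoxA1, 5 and 4 with WT and 6 and 3 with K295A against pGIPZ, of 13 tested. All genes gave 25.0% higher and 24.2% lower, 33.7% and 11.8%, and 37.8% and 12.8% in the same comparisons. The largest falls were in IRF1, an activator of class I and TAP1 transcription (-0.63, -1.27 and -0.90), and NLRC5, the class I transactivator (-0.61, -0.85 and -0.78, from 3.32 RPKM). IRF1 rose in 3 of the other groups, by 0.66 in shUSP7, 0.72 in shFOXA1 (pLKO) and 0.91 in siEZH2, and fell by 0.23 in shBUB3 (adjusted p = 0.0239). That group had the highest HLA-B and HLA-C of its experiment. Links between these regulators and the class I levels were not tested. RFX5, part of the SXY-binding complex, fell in shUSP7, shBUB3 and shFOXA1 in pLKO (-0.78, -0.48 and -0.85), where the counts over the list were 5 higher and 4 lower, 3 and 7, and 3 and 3 of 12 (6 and 2 in shFOXA1 after median-ratio scaling). The shares over all genes, unscaled, were 29.1% and 33.0%, 33.3% and 32.0%, and 25.2% and 45.1%. In shFOXA1 (pLKO), 3158 of all genes were higher and 5650 lower, or 4205 and 4492 after the scaling. In siEZH2 3 were higher and 2 lower of 13, led by NFKB1 (1.25), beside 20.3% and 43.0% of all genes. With 12 or 13 genes tested, these counts are given as a description of the regulators and nothing is read from them about the list. NLRC5 was under the filter in the pLKO fit, at 0.772 FPKM in control.

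Interferon signalling and induced genes (40 listed) were mostly lower in the pGIPZ experiment. Of 39 tested, 3 were higher and 25 lower after shFoxA1 (median -0.30), beside 25.0% and 24.2% of all genes. With WT 1 was higher and 29 lower (-0.70), beside 33.7% and 11.8%, and with K295A 0 and 31 (-0.62), beside 37.8% and 12.8%. WT against shFoxA1 gave 2 and 27, beside 36.6% and 18.9%. IFIT2, which binds foreign RNA, was at 61.1 RPKM in pGIPZ and fell in all 3 groups (-1.82, -2.82 and -2.28), as did ISG15 (-1.22, -1.91 and -1.63). BST2, or tetherin, had differences of -1.47, -2.56 and -2.04. Not all followed: the guanylate-binding GBP2 rose by 1.77 after shFoxA1, from 1.24 to 6.62 RPKM, and the interferon gamma receptor IFNGR1 by 0.96, and both were lower than control with WT. K295A against WT gave 4 higher and 0 lower of 39, IFIT3 (0.58), IFIT2 (0.54), IFIT1 (0.33) and ISG15 (0.28), beside 0.0876% and 0.0955% of all genes and without a called difference in any of the 6 tested class I and antigen processing genes. In the other experiments the list counted 14 higher and 10 lower of 32 after shUSP7 (29.1% and 33.0% of all genes), 7 and 10 after shBUB3 (33.3% and 32.0%), 15 and 9 after shFOXA1 in pLKO (25.2% and 45.1%) and 16 and 6 of 28 after siEZH2 (20.3% and 43.0%). The 10 lower of 32 after shUSP7 and after shBUB3 are near the shares over all genes. IFI6 rose by 1.26 in siEZH2, from 9.27 to 23.6 FPKM, where HLA-C fell. JAK1, the kinase that interferon receptors need, was at 1.22 FPKM in pLKO and rose by 0.47, 0.77 and 0.32 in shUSP7, shFOXA1 (pLKO) and siEZH2. In the pLKO fit 5 of the 32 tested, and in the siRNA fit 4 of the 28, reached a value of 1 in a single group. They entered the test through that group, and the counts and medians of these experiments include them. These counts are therefore a description, and nothing is read from them about the list. Links between the interferon genes and the class I levels were not tested in any experiment.

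**Figure D4:**
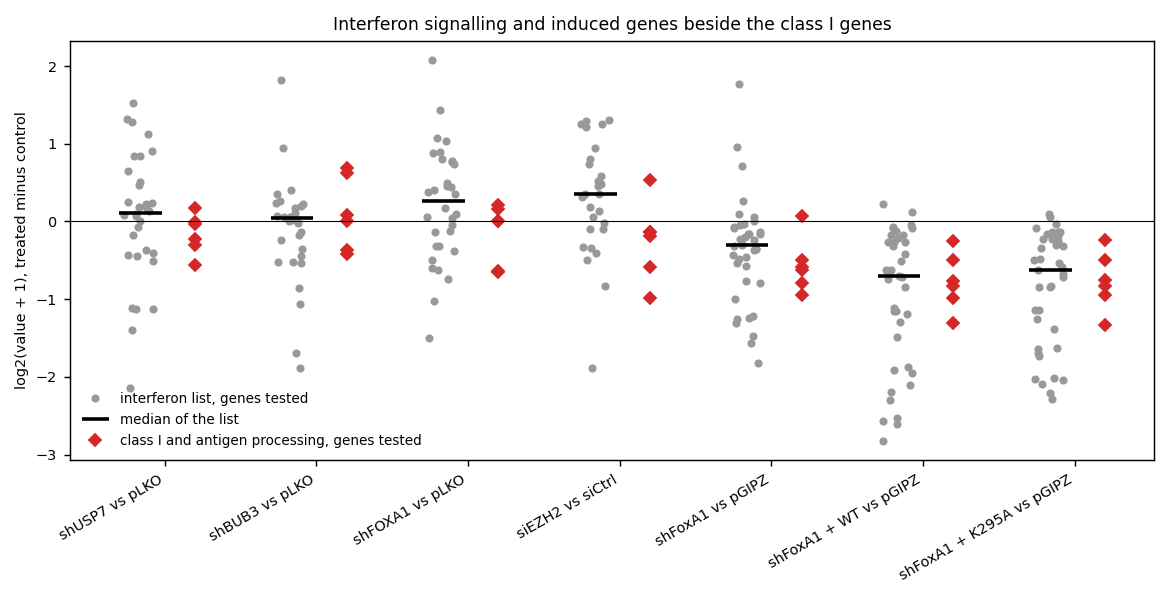
Difference from the own control, log2(value + 1), of the tested interferon-list genes (grey points, with a black line at their median) beside the 6 tested class I and antigen processing genes (red diamonds) in 7 comparisons. The medians are above 0 in the first 4 comparisons, where they include genes that passed the filter through a single group. They are at -0.30, -0.70 and -0.62 in the pGIPZ groups, where the red diamonds also lie below 0 except HLA-E after shFoxA1.

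On the log2(value + 1) scale, HLA-C, HLA-B and B2M ranged most over the 7 groups against their own controls, by 1.67, 1.61 and 1.33. TAP1 (1.30), HLA-E (0.561) and TAP2 (0.396) followed. That scale understates changes of genes near 1, and the order depends on it. With a pseudocount of 0.1, TAP1 ran from 0.74 in siEZH2 to -1.05 with WT. HLA-C then ran from 0.72 in shBUB3 to -1.06 in siEZH2, and B2M from 0.00 in shBUB3 to -1.33 with K295A. Of 11544 other genes tested in all 3 fits, those with the smallest root mean square difference over the 7 groups were ABHD3 (0.233), DENND1C (0.253) and BCAS1 (0.266) for HLA-C. They were APOL2 (0.270), DAPK2 (0.278) and MIR4312 (0.286) for HLA-B, and SCARNA22 (0.243), MIR4784 (0.306) and the RNA sensor gene IFIH1 (0.342) for B2M. ABHD3 shared with HLA-C its fall in siEZH2 (-1.01) and its rise in shBUB3 (0.34), and IFIH1 had -0.81, -1.30 and -1.26 in the pGIPZ groups but 0.19 in shFOXA1 (pLKO), where B2M fell. The groups share controls within an experiment, so the likeness is a description.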

How the data were processed

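RNA-seq values of 30 LNCaP libraries were read from 2 tables of 26475 rows, of which 32 held no values. The authors deposited FPKM for 18 libraries (pLKO and siRNA experiments) and RPKM for 12 (pGIPZ experiment). Per the submitters' processing notes the tools include STAR and the build is hg38. Counter and annotation: not given in the sources used here. Without read totals, relative depth came from ratios of low values, and no counting interval could be given. Columns were compared for duplicates (0 identical pairs).

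limma 3.58.1 in R 4.3.3 was run on log2(value + 1) for each experiment alone, with group terms and the mean-variance trend. This scale understates changes of genes near or under 1. Testing needed a level of 1 or more in 3 or more libraries, in any groups. The p-values of two-sided tests were adjusted by Benjamini-Hochberg over all genes tested, separately for 10 comparisons, and called under 0.05. The fit was tested on simulated data. For 3 libraries against 3, exact permutation gives no p under 0.1. Tables were prepared with Python 3.11.15 (pandas 2.3.3, NumPy 2.4.6, SciPy 1.17.1) and drawn with matplotlib 3.10.9.

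The 9 genes and the lists were chosen with earlier results of these data known. Named genes are the 9, the targeted genes, 10 pathway genes (JAK1, IRF1, NLRC5, TAPBP, ERAP1, PSMB10, PSME1, PSME2 and others not reported here), a selection from the 3 called genes per list and comparison with the largest change, and the 3 nearest patterns of the 3 genes that ranged most. ISG15, IFI6, IFNGR1 and, in some comparisons, other list genes were named after their values were seen. Alternatives were a pseudocount of 0.1, no filter, median-ratio scaling, no trend, a replicate block, only the 2 groups compared, and each replicate left out.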

Additional observations from a re-analysis of the deposited data

Results flagged for a closer look

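Of 19 genes looked at in both FOXA1 knockdowns (the 9 genes and 10 fixed pathway genes), 7 differed in sign between the experiments, with no overlap between the 3 knockdown and 3 control libraries in either. Over the 12042 genes tested in both, 1772 (14.7%) did so, and of the 19 genes 15 were tested in both and 6 of those did. These genes were looked at with earlier results of these data known, so nothing is read from that count. The values are log2(value + 1) differences from the own control, in pLKO and then in pGIPZ. HLA-B differed by 0.21 and -0.79, and HLA-C by 0.16 and -0.62. In pLKO HLA-C was not called (adjusted p = 0.137), and the HLA-B call (adjusted p = 0.0422) was lost without any 1 of the 3 shFOXA1 libraries or pLKO library 2 or 3, with no filter (0.0630) and with the replicate block (0.0534). PSMB9, under the filter in both experiments, differed by 0.0734 and -0.289. The activator IRF1 differed by 0.72 and -0.63. Among peptide supply genes, TAPBP differed by 0.36 and -0.42, PSME1 by 0.40 and -0.46 and ERAP1 by 0.50 and -0.12, of which -0.12 was not called. The difference between the experiments was not tested, since their tables were normalized separately.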

How the results depend on the processing

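Most results for single genes kept direction and call: 346 of the values under other settings and 329 of those with a library left out stayed on their side of the threshold, 6 and 18 lost the call, 2 and 1 gained one, and 0 called values reversed. Losses were HLA-B after shUSP7 and shFOXA1 (pLKO) and TAP1 after shUSP7 and re-expression. Genes called of the 9 numbered 4 after shUSP7 (1 to 3 with a library left out) and 3 after shFOXA1 in pLKO (1 to 2), in part because TAP2 leaves the test without a pLKO library. They numbered 5 after shFoxA1 in pGIPZ and 8 with no filter. The 23 genes called in K295A against WT were 11 with no filter, 8 with no trend, 14 with the replicate block, 6 with only the 2 groups and 9 to 18 with a library left out, and the cause was not tested. Same-numbered libraries correlated at -0.185 to 0.126 in the pLKO experiment, -0.126 to 0.0580 in the siRNA and -0.0690 to 0.0414 in the pGIPZ. Libraries of different numbers reached 0.189, 0.210 and 0.0905. The values gave no sign of pairing by number, and whether same-numbered libraries were made together is not known. The replicate block took 1 call, HLA-B in shFOXA1 (pLKO). No read totals were used here, so no counting interval is given for PSMB8, PSMB9 or HLA-F.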

Other observations

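Ligands with a class I-like fold gave called differences in several groups. RAET1L, a ligand of the NKG2D receptor of killer cells, was at 10.2 RPKM in pGIPZ and differed from it by -1.22 after shFoxA1, -2.83 with WT (adjusted p = 9.85e-10) and -2.60 with K295A (adjusted p = 2.40e-09). In shFOXA1 (pLKO) it was at 1.36 FPKM in the knockdown against 0.193 FPKM in control, given without a test because only knockdown libraries reached a value of 1. Other NKG2D ligands rose after shBUB3, MICA by 0.71 (adjusted p = 1.67e-05) and ULBP2 by 1.14 (adjusted p = 1.60e-05), beside HLA-B and HLA-C. AZGP1, a secreted glycoprotein of the same fold, fell by 3.15 after siEZH2 (adjusted p = 2.24e-08), from 23.6 to 1.75 FPKM, and also fell after shUSP7, shBUB3 and shFOXA1 in pLKO (-1.08, -0.87 and -0.89).

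Few class II genes were measured above the filter, 3 of 14 in the pLKO fit, 2 in the siRNA fit and 5 in the pGIPZ fit. HLA-DQB1 rose by 1.06 after siEZH2, from 1.75 to 4.73 FPKM (adjusted p = 7.15e-06), in the libraries where HLA-C fell. HLA-DMA, part of the class II peptide exchanger, was at 1.64 FPKM in pLKO and 0.519, 0.630 and 0.477 FPKM after shUSP7, shBUB3 and shFOXA1, and passed the filter through its control group alone.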
